A study of Homo sapiens with 16 samples.

Results

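Human mitochondrial DNA carries 37 genes, and 19 of them were listed among the 33937 genes of the deposited count matrix. They were found by their place on the mitochondrial chromosome (chrM, GRCh38, GENCODE 29), where all symbols start with MT-. The 19 comprise all 13 protein-coding genes, both rRNA genes and 4 of the 22 tRNA genes, and 16 of them passed a filter of more than 1 CPM (counts scaled to a common library size) in at least 4 libraries of each fit. The other 3, MT-TF, MT-TC and MT-TY, are tRNA genes that held between 0 and 3 counts in any library, and the 18 remaining tRNA genes were not analysed here.

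The RNA came from HCT116, an established human colorectal carcinoma line, engineered to carry a doxycycline-inducible shRNA against *NAA40* (NAA40-KD) or a scramble shRNA (SCR). Both lines were grown for 96 h with 1 μg/ml doxycycline (+dox) or without it (−dox), and 4 libraries were sequenced for each of the 4 groups, named by line and doxycycline. NAA40 is an enzyme that acetylates the N-terminus of histones H4 and H2A, and the series asks what it does in metabolism and drug resistance. Each shRNA is represented by 1 engineered line, so the shRNA and other differences between the lines cannot be told apart.

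Mitochondrial DNA is transcribed from both strands into long polycistronic RNAs, which are cut, mostly at the tRNAs between the genes, into rRNAs, mRNAs and tRNAs. The 13 proteins are core subunits of respiratory chain complexes I, III and IV and of the ATP synthase, and they are assembled with many more subunits that are encoded in the nucleus. The genes of a strand share their precursor, and the steady-state level of each RNA also depends on termination, processing and decay.

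The mRNAs are packed so closely that several overlap or end within a codon, which bears on how reads can be assigned to them. The last 90 bases of MT-ATP8 (chrM:8483-8572, plus strand) and of MT-ND4L (chrM:10677-10766, plus strand) are shown with the bases shared with the next gene in capitals.
MT-ATP8: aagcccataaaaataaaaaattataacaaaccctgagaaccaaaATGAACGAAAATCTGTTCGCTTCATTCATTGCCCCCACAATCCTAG
MT-ND4L: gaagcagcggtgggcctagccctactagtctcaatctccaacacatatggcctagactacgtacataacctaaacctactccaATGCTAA
MT-ATP8 shared 46 of its 207 bases with MT-ATP6, MT-ND4L shared 7 of its 297 bases with MT-ND4, and MT-ATP6 and MT-CO3 shared 1 base. In both runs the capitals open with ATG, the start codon of the downstream gene.

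Only 5 of the 13 mRNAs end in a complete TAA or TAG stop codon, while 6 end after the T or TA of an incomplete one, which is completed by polyadenylation of the RNA, and 2 end in AGA or AGG. The last 24 bases are shown for the 3 mRNAs whose shares of mitochondrial counts separated the lines and for MT-ND6, the only mRNA of the other strand, with the last codon or its remainder in capitals. The genes lie at chrM:14747-15887 (MT-CYB), chrM:9207-9990 (MT-CO3) and chrM:5904-7445 (MT-CO1) on the plus strand and at chrM:14149-14673 (MT-ND6) on the minus strand.
MT-CYB: aaaacaaaatactcaaatgggccT
MT-CO3: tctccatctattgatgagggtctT
MT-CO1: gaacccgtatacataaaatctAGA
MT-ND6: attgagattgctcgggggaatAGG
MT-TP, the tRNA for proline on the minus strand (chrM:15956-16023), is printed whole because it was the only listed tRNA with 10 counts or more in every library.
MT-TP: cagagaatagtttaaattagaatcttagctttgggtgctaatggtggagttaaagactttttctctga

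Total counts ran from 11065606 to 13855486 per library, and the counting error is therefore small for every mRNA and rRNA of the mitochondrion (740 counts or more in every library) and larger for MT-TP (90 to 282 counts). *NAA40* went against the labels: its level in the libraries labelled NAA40-KD (−dox) was 40.2% of that in SCR (−dox) (exact permutation test, two-sided, p = 0.0286, the smallest that 4 against 4 can give), whereas it was 111% of SCR (+dox) in the libraries labelled NAA40-KD (+dox) (exact p = 0.0571). The matrix columns of the −dox libraries of both lines carry the tag wDox, whose meaning is not given in the sources used here. Whether the doxycycline labels of the NAA40-KD libraries, or of both lines, are the right way round cannot be told from these values. If those of NAA40-KD alone were reversed, the direction of the doxycycline comparison in that line would turn. Each comparison of the lines and the interaction would then set libraries of different treatment against each other. If those of both lines were reversed, the lines would still be compared at like treatment. The comparisons named +dox and −dox would then change places, and the directions of both doxycycline comparisons and of the interaction would turn. The group names here follow the labels, and each direction given holds for the libraries as labelled. The library labelled NAA40-KD (−dox) replicate 4 stood apart, with a root mean square deviation of 0.661 from its group mean in log2 CPM over all genes against 0.142 to 0.279 in the other libraries. Its CPM of the keratin genes *KRT8* (5142) and *KRT19* (3994) and of the signal recognition particle RNA *RN7SL2* (17.5) were above the ranges of the other 15 libraries, which were 1527 to 2851, 1203 to 1748 and 1.04 to 7.30, as was that of the collagen gene *COL1A1* (195 against 56.6 to 93.4). Its CPM of the epithelial adhesion gene *EPCAM* (257) was below the other libraries (284 or more), as were those of the noncoding RNAs *SNHG1* (113 against 176 to 262) and *MALAT1* (302 against 345 to 1219). It also had the lowest share of mitochondrial counts of all libraries. Of 7 epithelial markers, 6 had 10 counts or more in every library, and the exception was *VIL1*. Their summed CPM was 3708 to 4879 in SCR (−dox), 4295 to 5420 in SCR (+dox), 5180 to 10508 in NAA40-KD (−dox) and 4048 to 4476 in NAA40-KD (+dox). Of 7 markers of other cell types only COL1A1 had 10 counts or more in every library, and their summed CPM was 59.9 to 188. The part of these differences in the results was not tested. In bulk RNA, a change in the mix of cells and a change of RNA per cell cannot be told apart.

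Mitochondrially encoded genes took between 5.03% and 14.3% of the counts of a library, and the groups overlapped except for the 2 of the NAA40-KD line. The share was 10.6%, 9.25%, 14.3% and 6.42% in SCR (−dox) replicates 1 to 4 and 9.08%, 11.4%, 8.97% and 8.48% in SCR (+dox). It was 9.34%, 9.25%, 7.63% and 5.03% in NAA40-KD (−dox) and 11.6%, 10.1%, 9.88% and 9.76% in NAA40-KD (+dox). The NAA40-KD (+dox) libraries were thus all higher than the NAA40-KD (−dox) libraries, while each of the other pairs of groups overlapped. As mean ± SD (n = 4 each), these are 10.1% ± 3.27, 9.48% ± 1.29, 7.81% ± 2.02 and 10.3% ± 0.862, in the order in which the values were given.

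**Figure D1:**
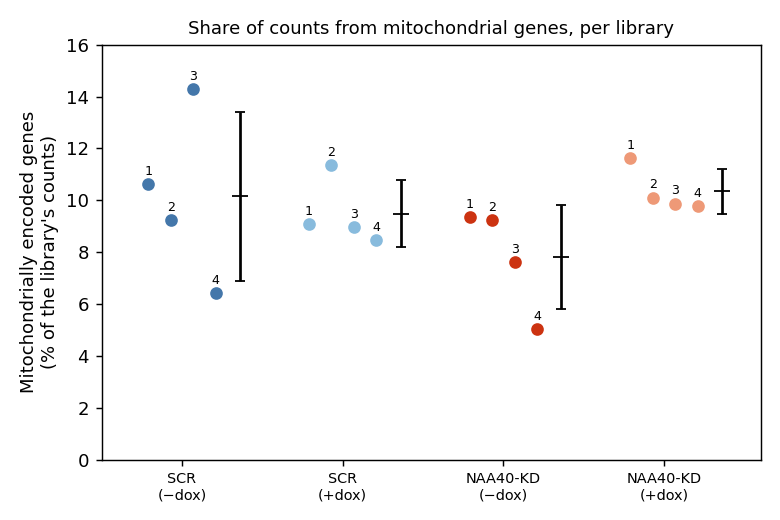
Share of each library's counts assigned to mitochondrially encoded genes, in percent (y axis, from 0), by group (x axis). Points are libraries with their replicate number, and the black bar is the mean ± SD of 4 libraries. The points run from 5.03% in NAA40-KD (−dox) replicate 4 to 14.3% in SCR (−dox) replicate 3, and only the 2 NAA40-KD groups do not overlap.

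Leaving these genes out of the total gave the same order of groups. Per 100 counts of all other genes there were 11.4 ± 4.08 mitochondrial counts in SCR (−dox), 10.5 ± 1.60 in SCR (+dox), 8.51 ± 2.34 in NAA40-KD (−dox) and 11.5 ± 1.08 in NAA40-KD (+dox), which puts NAA40-KD (+dox) and SCR (−dox) next to each other within their SD. The log2 ratio of the group mean in NAA40-KD (−dox) to that in SCR (−dox) was -0.38 with the library total and -0.42 with all other counts as the denominator, each smaller than the spread between libraries (0.45 and 0.49). In the +dox libraries the ratio of NAA40-KD to SCR was 0.13 and 0.14, against a spread of 0.16 and 0.17.

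The levels of single genes, given as TMM-normalized CPM per kb so that genes of different length can be compared, spanned a wide range. Over all 16 libraries MT-CO2 had the highest mean (16013 CPM per kb), followed by MT-CO3 (12503), MT-ATP6 (10680), MT-RNR2 (9962), MT-ND4 (9403) and MT-CO1 (8787). These genes encode the 3 core subunits of cytochrome c oxidase (complex IV), subunit a of the ATP synthase, the 16S rRNA of the large mitochondrial ribosomal subunit and a subunit of NADH dehydrogenase (complex I). MT-CYB, the cytochrome b of complex III, lay in the middle (4912), as did MT-ND1 (3901), MT-ND2 (3583), MT-ND5 (3346) and MT-RNR1, the 12S rRNA of the small ribosomal subunit (2782). MT-ND6 (2552), MT-ND4L (2217) and MT-ND3 (1491), further subunits of complex I, came next, and MT-ATP8 (361) and MT-TP (189) were lowest.

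The order differed between the groups. MT-CO2 was highest and MT-ND3, MT-ATP8 and MT-TP lowest in each of the 4, but MT-RNR2 ranked 6 in both SCR groups, below MT-CO1 and MT-ND4, whereas it ranked 2 in NAA40-KD (−dox), above MT-CO3 and MT-ATP6, and 3 in NAA40-KD (+dox). Most neighbours in the order of a group could not be separated. Of the 15 pairs of neighbours in each group's own order, the ranges of the libraries did not overlap for 1 pair in SCR (−dox), 3 in SCR (+dox), 3 in NAA40-KD (−dox) and 7 in NAA40-KD (+dox). The step from MT-ND3 down to MT-ATP8 was clear in each of the 4 groups, from 1519 to 397 CPM per kb in SCR (−dox) and from 1710 to 386 in NAA40-KD (+dox).

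**Figure D2:**
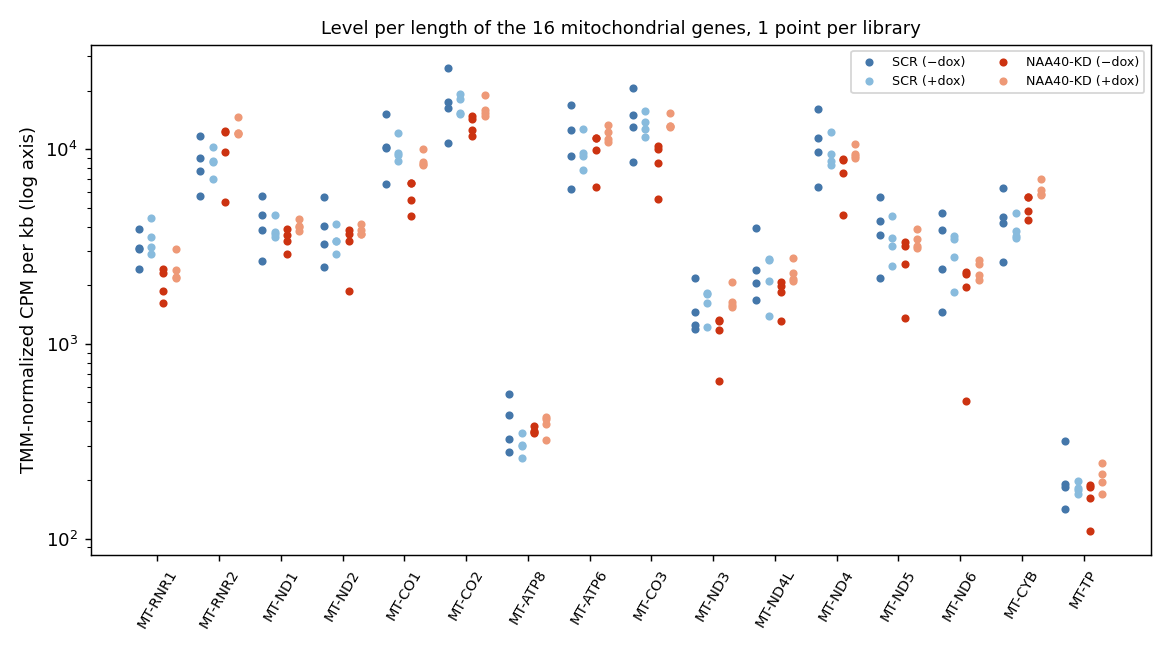
Level of the 16 tested mitochondrial genes in TMM-normalized CPM per kb (y axis, log scale), in genome order (x axis), with 1 point per library coloured by group. MT-CO2 is highest with a mean of 16013 over the 16 libraries and MT-TP lowest with 189, and MT-CYB and MT-RNR2 lie higher in the NAA40-KD (+dox) libraries than in the SCR (+dox) libraries.

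MT-ATP8 and MT-ATP6 are carried on one bicistronic mRNA, as are MT-ND4L and MT-ND4, yet their counts per kb were far apart. MT-ATP6 was 17.9 to 42.4 times MT-ATP8 per kb over the 16 libraries (median 29.6), and MT-ND4 was 3.51 to 6.27 times MT-ND4L. The rule by which reads across overlapping genes were assigned is not given in the sources used here, and its part in these ratios was not tested. MT-ATP6 has a near-identical copy in the nuclear genome, the pseudogene *MTATP6P1* (chr1:633696-634376), which held 9669 to 37523 counts, or 18.3% to 26.4% of the MT-ATP6 counts of the same library, so the level of MT-ATP6 is uncertain. In NAA40-KD (+dox) relative to SCR (+dox), MTATP6P1 rose by 0.33 ± 0.12 on the log2 scale (edgeR, adjusted p = 0.0487), beside 0.28 ± 0.12 for MT-ATP6, which did not pass. The other listed nuclear copies held 618 counts or fewer. Strand in the counting is not given either, so for MT-ND6 and MT-TP, the tested genes on the minus strand, reads from the opposite strand cannot be told apart.

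When each gene was expressed as a share of all mitochondrial counts, which removes the differences in the total, the lines differed most in MT-CYB. In the SCR libraries it took 4.87%, 5.17%, 4.90% and 4.83% of mitochondrial counts without doxycycline and 4.46%, 4.70%, 4.40% and 5.18% with it. In the NAA40-KD libraries it took 7.02%, 7.10%, 7.16% and 9.34% without doxycycline and 6.85%, 7.05%, 6.87% and 6.87% with it. All 8 NAA40-KD libraries were above all 8 SCR libraries, with a mean log2 difference of 0.59 (SD 0.15 and 0.09 between the 8 libraries of each line). These shares are a description with no test, and since they add up to the whole, a gene that takes more leaves less for the others.

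MT-RNR2 showed the same separation. It took 13.30%, 13.05%, 12.47% and 14.42% of mitochondrial counts in SCR (−dox) and 14.65%, 13.95%, 14.85% and 13.20% in SCR (+dox). It took 21.03%, 20.94%, 19.62% and 15.77% in NAA40-KD (−dox) and 19.59%, 18.85%, 19.42% and 19.31% in NAA40-KD (+dox). The log2 difference of the lines was 0.49 over all 8 libraries of each, and the lowest NAA40-KD value was that of the library that stood apart.

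Shares were lower in all 8 NAA40-KD than in all 8 SCR libraries for MT-CO1 and MT-CO3, subunits of cytochrome c oxidase. MT-CO1 took 14.7% to 17.8% in the SCR and 11.1% to 13.3% in the NAA40-KD libraries, a log2 difference of -0.37. MT-CO3 took 10.7% to 11.8% and 8.20% to 10.6%, a log2 difference of -0.22. For MT-CO3 the log2 difference was -0.09 with doxycycline and -0.36 without it. The other 12 tested genes overlapped between the lines, among them MT-RNR1 (-0.44) and MT-ND6 (-0.45), whose mean differences were similar in size but whose libraries varied more (SD 0.27 and 0.28 among the SCR libraries). How many of all genes separate the 8 libraries of each line was not counted. The separations in shares, and in the ratios below, therefore have no background beside them.

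**Figure D3:**
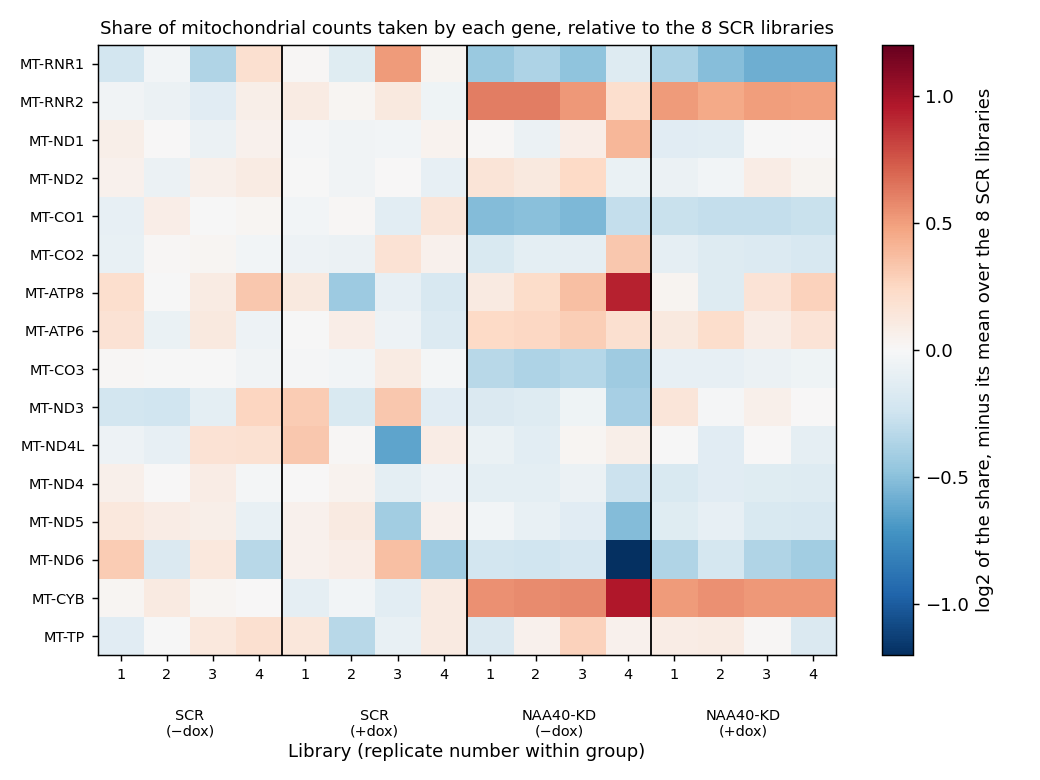
Share of mitochondrial counts taken by each of the 16 genes (y axis), as log2 of the share minus its mean over the 8 SCR libraries (colour), in each of the 16 libraries (x axis, by group and replicate number). Red is a larger and blue a smaller share, and values beyond the colour scale take its end colour. MT-CYB and MT-RNR2 are red in all 8 NAA40-KD libraries, MT-CO1 is blue in all 8, and NAA40-KD (−dox) replicate 4 has the strongest colours, with MT-ND6 at 0.506% of mitochondrial counts.

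Ratios between genes of one library show the same separation without any library total. MT-CYB and MT-RNR2, with higher shares in NAA40-KD, were set against MT-ND4 and MT-RNR1, whose mean log2 share differences were -0.15 and -0.44. These pairs were not among the planned ratios. Their separation restates the shares and is no further support. The counts of MT-CYB relative to MT-ND4, both mRNAs of the same strand, were 0.327, 0.359, 0.322 and 0.343 in SCR (−dox) and 0.311, 0.319, 0.334 and 0.377 in SCR (+dox). They were 0.532, 0.539, 0.526 and 0.779 in NAA40-KD (−dox) and 0.543, 0.542, 0.530 and 0.533 in NAA40-KD (+dox). Without NAA40-KD (−dox) replicate 4 the other 7 NAA40-KD libraries lay between 0.526 and 0.543, a narrower range than the 0.311 to 0.377 of the 8 SCR libraries.

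The 2 rRNAs, whose genes lie side by side with a tRNA gene between them, also stood in a different ratio in the lines. Whether polyadenylated RNA was selected or rRNA depleted is not given in the paper's methods. Its part in the rRNA counts was not tested. The counts of MT-RNR2 relative to MT-RNR1 were 4.76, 4.10, 4.93 and 3.89 in SCR (−dox) and 4.46, 4.75, 3.21 and 3.98 in SCR (+dox). They were 8.83, 8.33, 8.43 and 5.39 in NAA40-KD (−dox) and 7.83, 8.28, 9.01 and 8.91 in NAA40-KD (+dox). All 8 NAA40-KD libraries were again above all 8 SCR libraries, and without NAA40-KD (−dox) replicate 4 the lowest NAA40-KD value was 7.83 against a highest SCR value of 4.93.

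The ratio of both rRNAs to the 13 mRNAs ran from 0.176 to 0.242 in the SCR libraries. In the NAA40-KD libraries it ran from 0.230 to 0.306, and from 0.268 without replicate 4 of NAA40-KD (−dox), so the lines separated only without that library. The counts of MT-ND6 as a percent of the other 12 mRNAs overlapped between the lines (1.40% to 2.54% and 0.626% to 1.77%), and the lowest value was again that of the library that stood apart.

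**Figure D4:**
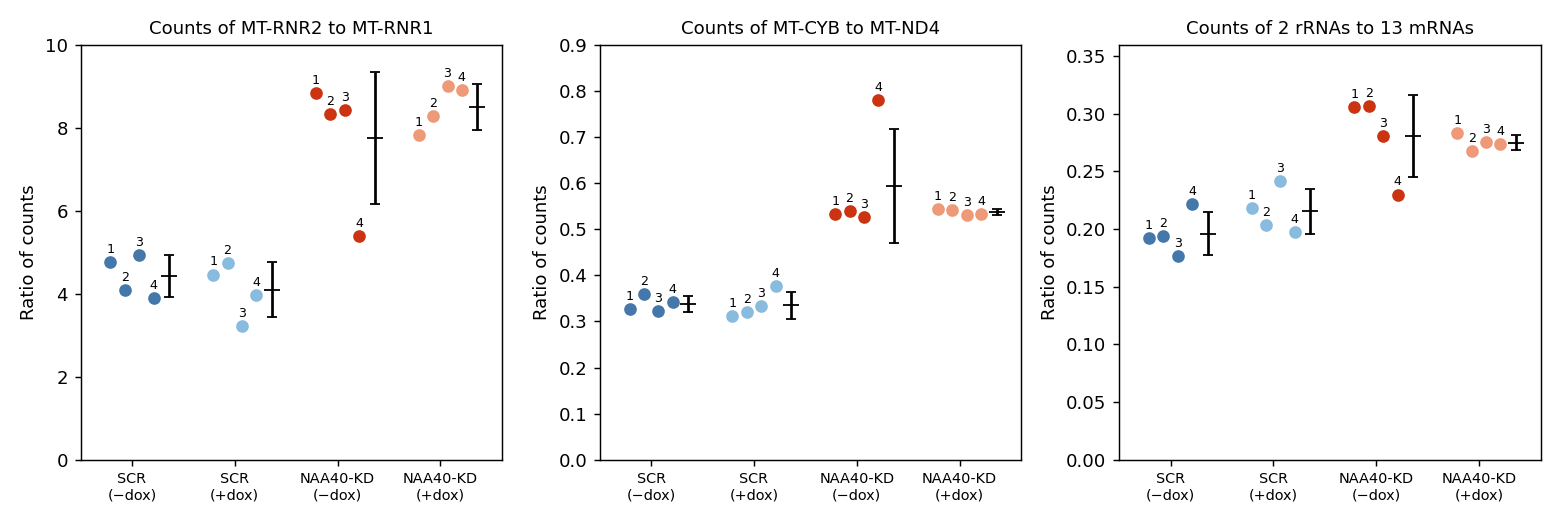
Ratios of counts within a library (y axes, from 0) by group (x axes): MT-RNR2 to MT-RNR1 (left), MT-CYB to MT-ND4 (middle) and the 2 rRNAs to the 13 mRNAs (right). Points are libraries with their replicate number and black bars the mean ± SD of 4. In the left and middle panels all 8 NAA40-KD libraries lie above all 8 SCR libraries, with 5.39 to 9.01 against 3.21 to 4.93 and 0.526 to 0.779 against 0.311 to 0.377.

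The comparison of the lines with doxycycline, which the study's design puts at its centre, gave the clearest tests of single genes. Of the 16 mitochondrial genes, 3 rose and 1 fell in NAA40-KD (+dox) relative to SCR (+dox) at an adjusted p under 0.05 (edgeR quasi-likelihood test with Benjamini-Hochberg adjustment over all genes tested), and none changed by more than 1 on the log2 scale. This share is near the 24.5% of all 13869 genes that passed the same test, so the number of calls does not set the mitochondrial genes apart. Their median log2 fold change was 0.06, against -0.00 over all genes tested.

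MT-CYB had the lowest adjusted p of the 16. Its TMM-normalized CPM was 4067, 5378, 4000 and 4326 in SCR (+dox) and 7990, 7075, 6709 and 6603 in NAA40-KD (+dox), so the groups did not overlap. It rose by 0.67 ± 0.11 (SE) on the log2 scale (edgeR, adjusted p = 0.000188). MT-RNR2 did not overlap either, with 13366, 15985, 13512 and 11014 CPM in SCR (+dox) and 22843, 18925, 18965 and 18556 in NAA40-KD (+dox), and rose by 0.56 ± 0.11 (edgeR, adjusted p = 0.00171). Groups that do not overlap, with NAA40-KD higher, were found for 13.2% of all genes tested.

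MT-RNR1 went the other way. It had 2995, 3368, 4207 and 2770 CPM in SCR (+dox) and 2917, 2286, 2106 and 2083 in NAA40-KD (+dox), where 1 library of each group crossed the other, and fell by 0.51 ± 0.13 on the log2 scale (edgeR, adjusted p = 0.00772). MT-ATP8, subunit 8 of the ATP synthase, had 72.6, 62.0, 62.4 and 53.6 CPM in SCR (+dox) and 87.5, 66.1, 80.3 and 85.3 in NAA40-KD (+dox), which overlapped, and rose by 0.35 ± 0.11 (edgeR, adjusted p = 0.0240). The MT-ATP8 call was lost when any of 4 single libraries was left out: SCR (+dox) replicate 4 or NAA40-KD (+dox) replicate 1, 3 or 4, with edgeR adjusted p between 0.0598 and 0.0895. Without SCR (+dox) replicate 2, MT-ATP6 (0.43) and MT-ND2 (0.25) also passed, and without SCR (+dox) replicate 4, MT-ND6 (-0.45). In these fits 3482 of 13706 and 3369 of 13711 of all genes passed. Within SCR (+dox), replicate 2 had the highest MT-ATP6 and MT-ND2 levels and replicate 4 the lowest MT-ND6 level. Leaving them out enlarges these differences by construction. In a fit of all 16 libraries, which share 1 estimate of the spread, only MT-CYB passed (edgeR, adjusted p = 0.0441). Of all 14392 genes 6.71% passed in that fit, so the loss of calls is not particular to the mitochondrial genes.

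The other 12 genes did not pass, and their log2 fold changes ran from -0.28 for MT-ND6 to 0.28 for MT-ATP6. The 7 complex I genes lay between -0.28 and 0.15, and the 3 complex IV genes between -0.17 and 0.02, so that in this comparison the levels of neither group moved as a block.

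**Figure D5:**
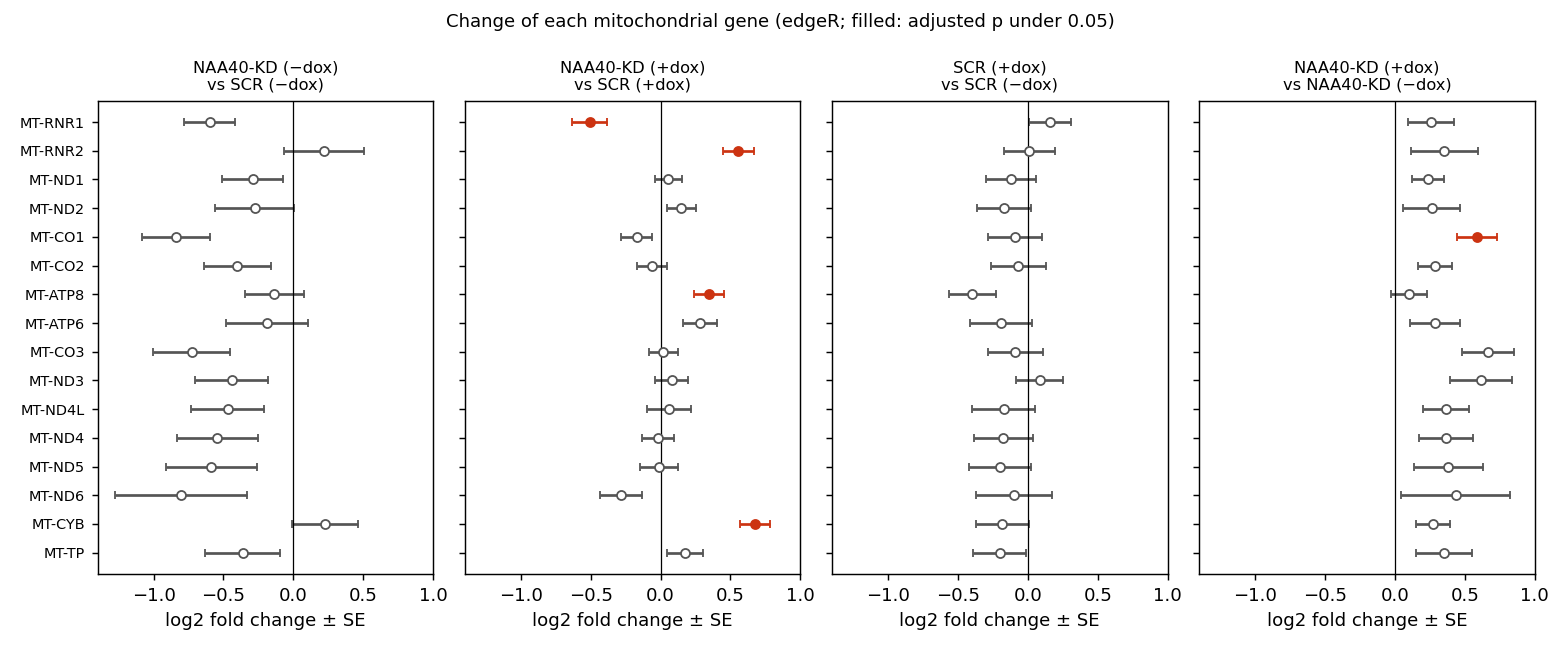
Log2 fold change ± SE (x axes) of the 16 mitochondrial genes (y axis) in the 4 comparisons of groups, by edgeR on 8 libraries each. Filled red points have an adjusted p under 0.05. There are 0 filled points of 16 for the lines without doxycycline, 4 for the lines with it, 0 for doxycycline in SCR and 1, MT-CO1, for doxycycline in NAA40-KD.

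Without doxycycline the mitochondrial genes tended downwards in NAA40-KD, but none passed the test. Relative to SCR (−dox), 14 of the 16 had a log2 fold change below 0, with a median of -0.42 against 0.04 over all genes tested. Of the 16, 0 passed at an adjusted p under 0.05 by edgeR or limma-voom, 2 passed by DESeq2 and 3 had an unadjusted p under 0.05. Of all 13903 genes, 6.42% passed by edgeR, 7.13% by limma-voom and 13.8% by DESeq2. The largest falls were those of MT-CO1 (-0.84 ± 0.24; edgeR, adjusted p = 0.0707), MT-ND6 (-0.80 ± 0.47) and MT-CO3 (-0.73 ± 0.27), and the 2 genes above 0 were MT-CYB (0.23 ± 0.24) and MT-RNR2 (0.22 ± 0.29).

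The spread between libraries was wide. MT-CO1 had 15792, 15653, 23377 and 10184 CPM in SCR (−dox) and 10330, 10393, 8483 and 6983 in NAA40-KD (−dox), so the lowest SCR library lay among the NAA40-KD libraries. MT-RNR1 had 2949, 2938, 3704 and 2317 CPM in SCR (−dox) and 2200, 2299, 1783 and 1550 in NAA40-KD (−dox). It was the only mitochondrial gene whose groups did not overlap, at a log2 fold change of -0.60 ± 0.18 (edgeR, adjusted p = 0.0814), where 11.9% of all genes did not overlap with NAA40-KD lower. Replicate 4 had the lowest share of mitochondrial counts in both groups. Without NAA40-KD (−dox) replicate 4, MT-CO1 (-0.74) and MT-RNR1 (-0.51) passed (edgeR, adjusted p = 0.0169 and 0.0113). In that fit 36.5% of all genes passed, so 2 of 16 is below the background.

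In the SCR line none of the 16 genes differed between +dox and −dox past the threshold. By edgeR, DESeq2 and limma-voom alike 0 of 16 passed, 1 had an unadjusted p under 0.05 by edgeR (MT-ATP8, -0.40 ± 0.17), and 0 of all 13882 genes passed, with 271 (1.95%) at an unadjusted p under 0.05. The median log2 fold change of the 16 was -0.14, against -0.00 over all genes. The spread within a group was again wide: MT-ND4 had 15744, 13285, 22284 and 8797 CPM in SCR (−dox) and 13066, 16842, 11992 and 11483 in SCR (+dox), so the 4 libraries with doxycycline fell inside the range of those without.

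In the NAA40-KD line, of the 16 mitochondrial genes 1, MT-CO1, was higher in the libraries labelled +dox at an adjusted p under 0.05, and the estimates of all 16 were above 0. Relative to NAA40-KD (−dox) the log2 fold changes in NAA40-KD (+dox) lay between 0.10 and 0.67, with a median of 0.35 against -0.04 over all genes tested, and 10.2% of all 13844 genes passed. MT-CO1, the catalytic subunit of cytochrome c oxidase, had 10330, 10393, 8483 and 6983 CPM without doxycycline and 15518, 13197, 12865 and 12821 with it, and rose by 0.59 ± 0.14 (edgeR, adjusted p = 0.0354). This call was lost in 6 of the 8 fits that leave out 1 library, those without any 1 of the 4 NAA40-KD (+dox) libraries or without NAA40-KD (−dox) replicate 1 or 3 (edgeR, adjusted p 0.0504 to 0.110). MT-CO3 had 8104, 7845, 6677 and 4342 CPM without and 12019, 10328, 10298 and 10222 with doxycycline, and its log2 fold change was 0.67 ± 0.18 (edgeR, adjusted p = 0.0522).

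Groups did not overlap, with +dox higher, for 6 of the 16 genes in this comparison (MT-CO1, MT-CO3, MT-CYB, MT-ND3, MT-ND4 and MT-ND4L), against 15.5% of all genes. The 16 genes share the mitochondrial total of a library, which itself did not overlap between these groups, so they are not independent observations. Counts of estimates above or below 0 carry the same limit in each comparison. Without NAA40-KD (−dox) replicate 4, 8 of the 16 passed, all of them higher (the same 6 with MT-CO2 and MT-ND1), among them MT-CO3 by 0.50 and MT-ND3 by 0.42. Of all genes 52.4% passed in that fit in either direction, which is near the share of mitochondrial genes called. How many of all genes passed with +dox higher was not counted, so the direction of the 8 has no background beside it. The median of the 16 was then 0.18. MT-CO2, the second core subunit of cytochrome c oxidase, had 9750, 10120, 8539 and 7954 CPM without doxycycline and 12981, 10848, 10458 and 10094 with it, and differed by 0.28 ± 0.12 with all libraries (edgeR, adjusted p = 0.167).

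The difference between the line differences, with and without doxycycline, was tested as an interaction over all 16 libraries. Of the 16 genes, 0 passed by edgeR, DESeq2 or limma-voom, 2 had an unadjusted p under 0.05 by edgeR (MT-CO1 and MT-CO3), and 9.22% of all 14392 genes passed. All 16 estimates were above 0, with a median of 0.51 against -0.05 over all genes, and the largest were those of MT-CO3 (0.75 ± 0.31; edgeR, adjusted p = 0.140) and MT-CO1 (0.68 ± 0.28; edgeR, adjusted p = 0.141). MT-RNR1 had the smallest (0.10 ± 0.24). Without SCR (−dox) replicate 4, MT-CO3 (0.93) and MT-CO1 (0.84) passed, as did 925 of all 14369 genes. That library had the lowest mitochondrial share of its group. Leaving it out enlarges the interaction by construction, so these calls support nothing.

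The 13 mitochondrial mRNAs function only with subunits made from nuclear genes, of which 73 were listed for complexes I, III, IV and V and 72 tested. The counts of the 13 mRNAs relative to the sum of the 73 nuclear genes were 13.7, 11.4, 20.8 and 6.58 in SCR (−dox) and 10.3, 15.5, 8.44 and 9.62 in SCR (+dox). They were 11.4, 11.6, 8.65 and 5.45 in NAA40-KD (−dox) and 14.1, 12.4, 11.5 and 11.4 in NAA40-KD (+dox), so that the lines overlapped with and without doxycycline. With doxycycline 14 of the 72 nuclear genes were lower and 0 higher in NAA40-KD, where 13.7% of all genes were lower and 10.9% higher. The median log2 fold change of the 72 was -0.19. In that comparison 5 of the 14 encode subunits of complex IV and 3 each of complexes I, III and V, including *COX6C* (-0.47 ± 0.10) and *COX7C* (-0.33 ± 0.10) of complex IV, *UQCRFS1*, the Rieske iron-sulfur protein of complex III (-0.41 ± 0.11), and *ATP5IF1*, the inhibitory factor of the ATP synthase (-0.68 ± 0.11). With all 16 libraries in the fit only ATP5IF1 and COX6C passed, 2 of 72, where 6.71% of all genes passed. Without doxycycline 2 were higher and 0 lower in NAA40-KD, with 7 at an unadjusted p under 0.05, where 6.42% of all genes passed. In the same 2 comparisons the medians of the 13 mitochondrial mRNAs were 0.06 and -0.44. For +dox relative to −dox the median of the 72 nuclear genes was 0.15 in SCR, with 69 above 0 and 3 below. In that comparison 0 of the 72 and 0 of all genes passed. In NAA40-KD the median was -0.08, and 1 of the 72 passed, where 10.2% of all genes passed.

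Nuclear genes that transcribe, replicate, process, modify and degrade mitochondrial nucleic acids, 66 in all, were examined beside the members, and 65 were tested. With doxycycline 11 were higher and 2 lower in NAA40-KD, against 10.9% and 13.7% of all genes. *POLRMT*, the mitochondrial RNA polymerase, rose by 0.44 ± 0.09 on the log2 scale (edgeR, adjusted p = 0.00256). *PPARGC1B*, a coactivator of mitochondrial biogenesis, rose by 0.77 ± 0.11, *PNPT1*, a polynucleotide phosphorylase that degrades mitochondrial RNA, rose by 0.63 ± 0.10, and *MTERF3*, a regulator of mitochondrial transcription, rose by 0.61 ± 0.11. *RPUSD4*, a pseudouridine synthase that acts on the 16S rRNA (MT-RNR2), fell by 0.95 ± 0.10 (edgeR, adjusted p = 4.52e-06), and *MTO1*, a tRNA-modifying enzyme, fell by 0.47 ± 0.11. With all 16 libraries in the fit only PPARGC1B, RPUSD4 and MTO1 of the 65 passed, where 6.71% of all genes passed. The calls of POLRMT, PNPT1 and MTERF3 were thus lost.

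The other general factors did not pass with doxycycline. *TFAM*, which packages mitochondrial DNA and starts its transcription, differed by 0.16 ± 0.13, *TFB2M* by 0.07 ± 0.11, *TEFM* by 0.14 ± 0.17, *MTERF1* by 0.06 ± 0.14, *LRPPRC* and *SLIRP*, which together stabilise mitochondrial mRNAs, by 0.13 ± 0.08 and 0.07 ± 0.12, the helicase gene *TWNK* by 0.19 ± 0.08 and the DNA polymerase gene *POLG* by -0.01 ± 0.10. Without doxycycline the only one of the 65 to pass was PPARGC1B, which fell by 0.82 ± 0.14 (edgeR, adjusted p = 0.0127), and POLRMT and TFAM differed by 0.86 ± 0.36 and -0.57 ± 0.32. Without the library that stood apart both passed at smaller estimates, POLRMT at 0.29 and TFAM at -0.31, where 36.5% of all genes passed.

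In the NAA40-KD line 2 of the 65 were higher with doxycycline, PPARGC1B by 1.24 ± 0.12 (edgeR, adjusted p = 0.00150) and *MRM2*, a methyltransferase of the 16S rRNA, by 0.55 ± 0.14 (edgeR, adjusted p = 0.0410), and RPUSD4 was lower (-0.77 ± 0.14), against 10.2% of all genes that passed. In the SCR line 0 of 65 passed by edgeR, DESeq2 and limma-voom, with 3 at an unadjusted p under 0.05.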

How the data were processed

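RNA-seq of 16 HCT116 libraries was examined. The deposited values are whole-number read counts per gene, which the authors made with STAR and featureCounts. The identifiers are human and 33811 of 33937 were found in GENCODE 29 (GRCh38), whereas the study's methods name a mouse build and the submitters' processing notes list a human and a mouse build. Strand and multi-mapping settings are not given in the sources used here. Counts agreed less between libraries of a group than counting noise allows (chi-square per degree of freedom 1.74 to 140), so no pair differed by counting noise alone. The values were 1.74 to 4.44 within NAA40-KD (+dox), 2.43 to 140 within NAA40-KD (−dox) and 8.61 to 40.5 within the SCR groups. A library sequenced again, or repeat preparations of one RNA sample, cannot be told apart from separate samples by this. The methods speak of independent RNA samples.

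From the counts, genes with a CPM above 1 in at least 4 libraries were kept for each comparison of 8 libraries, scaled by TMM and tested with edgeR 4.0.16 (robust quasi-likelihood F test, R 4.3.3), with Benjamini-Hochberg adjustment over all genes tested and 0.05 as the threshold. SE is the absolute log2 fold change over the root of the F statistic. The interaction was fitted over all 16 libraries. NAA40 was tested by an exact permutation test. DESeq2 1.42.0, limma-voom (limma 3.58.1), other scalings and filters, a replicate block and leaving out each library served as alternatives. All 16 tested mitochondrial genes were named, with called or general factors of the nuclear lists. Members and lists were chosen with earlier results of these data known. Sequences come from GENCODE 29 transcripts, and the scripts were tested on simulated data.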

Additional observations from a re-analysis of the deposited data

Results flagged for a closer look

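In groups of 4 libraries, 1 library lay far from the other 3 (a gap to the nearest above Dixon's 95% critical value) in 14 of 156 sets of values, where chance gives about 1 in 20, or 7.8. The sets are levels, shares and ratios of the same genes in the same libraries. They are not independent, so 14 against 7.8 cannot be read as an excess. The library labelled NAA40-KD (−dox) replicate 4 accounted for 7 of the 14. In it MT-CO1 took 13.2%, MT-CO2 15.02%, MT-CYB 9.34% and MT-ND6 0.506% of mitochondrial counts, the ratio of MT-RNR2 to MT-RNR1 was 5.39, that of MT-CYB to MT-ND4 was 0.779 and MT-ND6 stood at 0.626% of the other mRNAs.

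NAA40-KD (+dox) replicate 1 was far above its group in TMM-normalized CPM for MT-CO1 (15518), MT-CO3 (12019), MT-ND3 (715) and MT-RNR2 (22843). NAA40-KD (+dox) replicate 2 had a high share of MT-CYB (7.05% of mitochondrial counts), although the group's range was only 6.85% to 7.05%. SCR (+dox) replicate 3 had a high share of MT-CO3 (11.8%) and a low share of MT-ND5 (5.01%).

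The difference between the lines itself differed with doxycycline for 3 of the 65 nuclear genes of mitochondrial gene expression, by the interaction term of edgeR, where 9.22% of all 14392 genes passed. The estimates on the log2 scale were 1.59 ± 0.17 for PPARGC1B (adjusted p = 5.79e-05), -0.81 ± 0.16 for RPUSD4 (adjusted p = 0.00514) and -0.70 ± 0.18 for TK2, the mitochondrial thymidine kinase (adjusted p = 0.0221).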

How the results depend on the processing

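Among the single genes named, 2003 of the recomputed values kept their direction and side of the threshold, 49 moved past it, 33 no longer passed and 69 changed sign. For the lines without doxycycline, the number of mitochondrial genes called was 0 by edgeR, 2 with DESeq2, 1 with no filter on low counts, 3 with all 16 libraries in the fit, 2 at an adjusted p under 0.1 and 8 without both −dox libraries numbered 4. Of all genes, 6.42% passed by edgeR, 13.8% with DESeq2, 20.5% with all 16 libraries and 36.8% without both libraries numbered 4. With no filter 1052 of 31026 genes passed. For the lines with doxycycline the mitochondrial number was 4, where 24.5% of all genes passed. It became 1 with all 16 libraries in the fit (6.71% of all genes) and 0 with a log2 fold change above 1 also required. For doxycycline in NAA40-KD the mitochondrial number was 1, and became 2 with DESeq2, limma-voom, all 16 libraries or an adjusted p under 0.1, 0 with no filter, an adjusted p under 0.01 or the added fold threshold, and 8 without both libraries numbered 4. The share of all genes was 10.2% by edgeR, 18.2% with DESeq2, 10.8% with limma-voom, 22.3% with all 16 libraries and 52.4% without both libraries numbered 4. For the interaction the mitochondrial number rose from 0 to 4 without those libraries, while the share of all genes rose from 9.22% to 23.6%. That setting was chosen after seeing the data, in which both libraries had the lowest mitochondrial share of their group. Leaving out the SCR one raises the SCR (−dox) mean by construction, so the counts for the lines without doxycycline and for the interaction support nothing. The NAA40-KD comparison holds no SCR library, and its fit is that without NAA40-KD (−dox) replicate 4. There the median log2 fold change of the mitochondrial genes fell from 0.35 to 0.18. The choice after seeing the data limits that count too. The causes of these changes were not tested. With 1 library left out at a time, the numbers called were 0 to 2 for the lines without doxycycline, 3 to 6 with it, 0 for doxycycline in SCR, 0 to 8 in NAA40-KD and 0 to 2 for the interaction, and the NAA40 level of NAA40-KD (+dox) was 109% to 113% of that in SCR (+dox). In these fits 226 to 5021, 2334 to 3482, 0, 380 to 7184 and 820 to 3465 of all genes were called, in the same order. Strand, multi-mapped reads and the overlapping or copied genes limit MT-ND6, MT-TP, MT-ATP6 and MT-ATP8, and MT-TP has the fewest counts. The unstated selection or depletion of RNA limits MT-RNR1, MT-RNR2 and the ratios that use them.

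The estimates that changed sign under the other settings, apart from single libraries left out, lay between -0.13 and 0.018. For the lines without doxycycline these were TFB2M (-0.013 with no filter), SLIRP (0.018 without both libraries numbered 4) and TWNK (-0.031 with library size only, -0.011 with upper-quartile scaling, -0.0011 with mitochondrial genes left out of the totals, -0.013 with limma-voom, -0.042 with no filter, -0.0093 with all 16 libraries, -0.013 with the replicate block and -0.11 without both libraries numbered 4). For the lines with doxycycline they were MT-ND5 (0.0011 with library size only, 0.013 with limma-voom and 0.014 with the block) and POLG (0.0077 with library size only and 0.0013 with DESeq2 and limma-voom). For doxycycline in SCR they were MT-RNR2 (-0.13) and MT-ND3 (-0.0052) without both libraries numbered 4.

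With 1 library left out at a time, 28 estimates changed sign, 23 of them of mitochondrial genes. For the lines without doxycycline the ranges were -0.38 to 0.076 for MT-ATP6, -0.27 to 0.069 for MT-ATP8, -0.058 to 0.11 for TFB2M and -0.13 to 0.050 for TWNK. For the lines with doxycycline they were -0.14 to 0.0052 for MT-CO2, -0.044 to 0.11 for MT-CO3, -0.035 to 0.14 for MT-ND3, -0.083 to 0.11 for MT-ND4, -0.11 to 0.17 for MT-ND4L, -0.14 to 0.15 for MT-ND5, -0.069 to 0.18 for MTERF1, -0.077 to 0.091 for POLG and -0.028 to 0.13 for SLIRP. For the interaction, MT-RNR1 ran from -0.024 to 0.23. For doxycycline in SCR they were -0.38 to 0.073 for MT-ATP6, -0.25 to 0.14 for MT-CO1, -0.24 to 0.19 for MT-CO2, -0.26 to 0.14 for MT-CO3, -0.36 to 0.042 for MT-CYB, -0.28 to 0.071 for MT-ND1, -0.33 to 0.076 for MT-ND2, -0.0052 to 0.31 for MT-ND3, -0.36 to 0.079 for MT-ND4, -0.32 to 0.13 for MT-ND4L, -0.40 to 0.035 for MT-ND5, -0.32 to 0.18 for MT-ND6, -0.13 to 0.20 for MT-RNR2 and -0.34 to 0.083 for MT-TP.

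The correlations of same-numbered libraries' deviations from their group means ran from -0.468 to 0.270 over the 4 comparisons. Differently numbered libraries were not correlated beside them, so whether the replicate numbers pair the libraries cannot be told. The main tests took the libraries as unpaired. With the replicate number as a block, 0 mitochondrial genes were called for the lines without doxycycline, 5 with it, 0 for doxycycline in SCR, 1 in NAA40-KD and 0 for the interaction. All genes called were 82 of 13903, 4070 of 13869, 0 of 13882, 777 of 13844 and 1217 of 14392, in that order.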
